A study of Mus musculus with 18 samples.

Results

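Mouse embryonic stem cells labelled KO were compared with cells labelled Rescue on the arrays titled 8h. These are 6 of the 18 arrays of the series, 3 from each line, and they were chosen by their titles alone. Per the labels, every sample came from strain 129SV cells in which Esrrb was knocked out and which expressed Raf-ErT2, a Raf kinase fused to a hormone-binding domain that 4-hydroxytamoxifen (4OHT) switches on. The Rescue cells had also received an Esrrb transgene and the KO cells an empty vector control. In both lines the cells were kept in serum medium and LIF for the last 24 h before treatment, with the FGF receptor inhibitor PD173074 (250 nM) replacing the GSK3 inhibitor Chir99021, and the title 8h stands for 250 nM 4OHT for 8 h. The source names of the same 6 arrays add a further 2 h with a Mek inhibitor, and those of the arrays titled 8h2h leave it out, so the labels do not settle whether Mek was inhibited here. Titles and source names disagree in the same way for both lines, and the groups below follow the titles. Levels of Dusp6, Egr1 and Etv4 on the arrays of each title are given below, beside Dusp6.

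Esrrb is an orphan nuclear receptor that binds DNA with Nanog, Klf4 and other factors and helps to hold embryonic stem cells in the naive state, the state of the early epiblast. ERK, the kinase that Raf activates through Mek, moves these cells out of that state, and it sets off its own feedback inhibitors, among them the dual-specificity phosphatases and the Sprouty proteins. Stem cells leaving the naive state under ERK can turn on genes of the formative epiblast, the primitive endoderm or the trophoblast, the outer layer that forms the placenta.

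The 3 replicates a, b and c are 3 slides, and each slide carried all 6 groups of the series at the same places, so a group and its place on the slide cannot be told apart. The sources used here do not give whether replicates are separate cultures or whether each line is 1 clone, so p-values measure the spread between these samples, which may be technical. Of all probes, 60.4 to 61.8% were well above background on the Rescue arrays and 51.0 to 56.4% on the KO arrays. The 75th percentile of the signal, to which every level below is relative, was 497 to 597 on the Rescue arrays and 500.3 to 765 on the KO arrays, and negative control spots had medians of 25 to 28. Levels correlated at r = 0.988 to 0.996 between arrays of the same line and at 0.964 to 0.977 between lines, across all 16022 genes. All 7 stem cell markers checked (Pou5f1, Sox2, Sall4, Lin28a, Nanog, Utf1 and Tdgf1) were well above background on the 6 arrays, with summed signals of 163 to 176 times the 75th percentile in Rescue and 203 to 211 in KO.

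The gene that was knocked out was read by 1 probe. Esrrb had levels (log2, relative to each array's 75th percentile) of 2.15, 1.75 and 1.84 on the Rescue arrays of slides a, b and c and of 4.09, 3.50 and 3.65 on the KO arrays. The KO arrays were the higher ones on all 3 slides, with no overlap. The lines did not overlap, in either direction, in 48.0% of all genes. The log2 difference of Esrrb, KO minus Rescue, was 1.84 ± 0.26 (SE, limma's moderated test, adjusted p = 2.03e-04), or 3.57-fold more signal on the arrays labelled KO. At titled 0h Esrrb differed by 0.63 ± 0.26 in the same direction, which was not called (same test, adjusted p = 0.118). The change of 1.21 ± 0.37 between 0h and 8h was not called either (limma's interaction test, adjusted p = 0.135). The sources used here do not give where this probe lies relative to the deleted part of the gene, or whether the transgene carries its sequence. The probe therefore does not check the labels by itself, but it reads against them. KO and Rescue below mean the arrays so labelled, and every direction rests on those labels.

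Between the lines, 3450 of 16022 genes (21.5%) differed at an adjusted p under 0.05: 1467 (9.16%) were higher in KO and 1983 (12.4%) were lower. These shares stand beside the counts of list members below. The lower genes included more large differences, since 995 of the lower but 499 of the higher genes differed by at least 2-fold. The sign was shared by the 3 slides in 3441 of the called genes and in 10411 of all genes. In 7688 of all genes (48.0%) the 3 KO values did not overlap the 3 Rescue values, in either direction. That share stands beside every gene said not to overlap here. In 225 called genes no KO array was well above background, and in 28 no Rescue array was. Such a gene has only a bound, written below as "at least". The excess of lower calls depended on the filter. It was not smaller when probes had to be above background on all 3 arrays of a group titled 8h, with 1462 of 15589 genes higher and 2010 lower. Under the filters named next it was smaller. With only probes above background on all 18 arrays, 1490 of 12571 genes were higher and 1633 lower. Without a filter on dim probes, 1601 of 22852 were higher and 1707 lower. With each array scaled to its median, 186 genes were higher and 864 lower, and without scaling 537 and 674. With median scaling of only the 6 arrays titled 8h, a setting chosen after seeing the data, 1278 were higher and 3395 lower. Calls said below to end with median scaling ended in the fit of all 18 arrays. In the fit of only these 6 arrays, median scaling ended only that of Stat3 (limma's moderated test, adjusted p = 0.0515). Leaving out replicate a of the KO arrays left 2258 calls, and the slide as a block gave 4108. Leaving out replicate b of the KO arrays titled 8h2h, which is not compared here, gave 4630. On that array 88.6% of probes were above background, and it enters the spread behind each SE and adjusted p of the main fit.

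**Figure D1:**
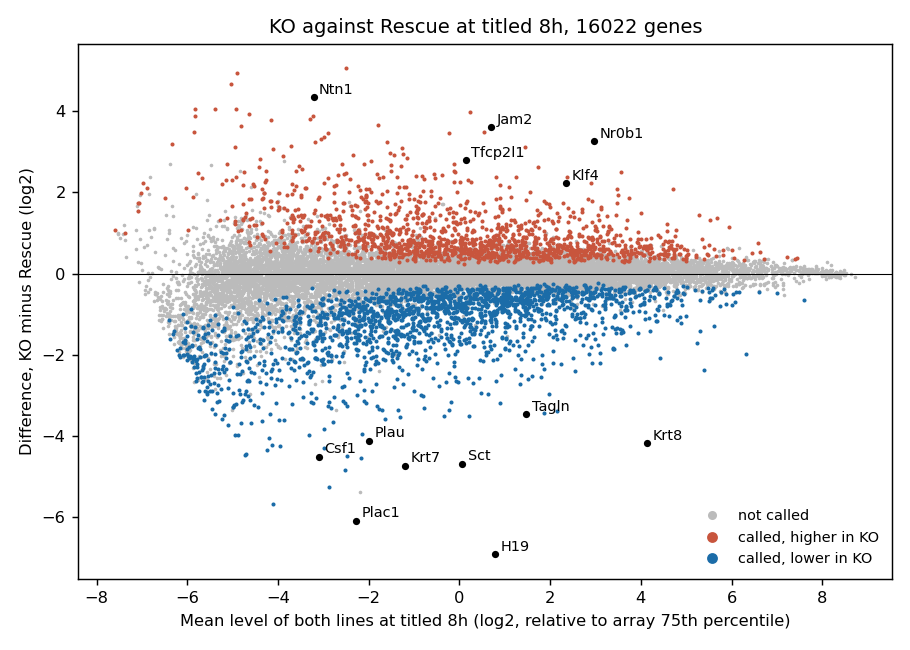
Each point is 1 of 16022 genes, with its mean level over both lines at titled 8h (log2, relative to the 75th percentile of each array) across and the log2 difference, KO minus Rescue, up. Red genes were called higher in KO and blue genes lower, grey genes were not called, and 13 genes are named. The blue cloud reaches further from 0 than the red one, and points at the left edge below a level of about -6 lie near background, where a difference is a bound.

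The genes furthest lower in KO were led by placental and imprinted genes. Plac1, a placental gene, had levels of 0.72, 0.85 and 0.78 in Rescue and -5.91, -3.99 and -6.08 in KO, where 1 of 3 arrays was well above background, a log2 difference of -6.11 ± 0.77 (adjusted p = 7.24e-05). Nnat, an imprinted gene for a small membrane proteolipid, was at least 12.1-fold lower in KO (adjusted p = 1.28e-05). Krt7, a simple epithelial keratin, was 26.9-fold lower, Sct, the hormone secretin, 26.0-fold lower, and Csf1, a macrophage growth factor, 23.0-fold lower. Ifi202b, an interferon-inducible gene, Macc1 and Rab7b, a Rab GTPase of late endosomes, had log2 differences of -5.28 ± 0.95, -4.84 ± 1.00 and -4.56 ± 0.55, with 1, 1 and 2 of the 3 KO arrays above background. H19, an imprinted non-coding RNA, had the largest fitted difference, -6.93 ± 1.94 (adjusted p = 0.0194), but the largest SE as well. Its Rescue levels were 6.60, 0.49 and 5.68 and its KO levels -2.70, -1.53 and -3.80. The H19 values did not overlap, but the gap on slide b was far smaller than on slides a and c. Replicate b of Rescue was low at the other titles too. It read 0.03 at 0h, where a and c read 6.25 and 5.46, and 0.54 at 8h2h, where they read 6.81 and 5.71. The call for H19 ended when replicate a or c of either line was left out, with differences of -6.92 to -5.76.

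At the other end, Ntn1, the guidance cue netrin, read -5.37, -5.74 and -5.07 in Rescue, where 2 of 3 arrays were above background, and -0.59, -1.72 and -0.81 in KO. It was 20.4-fold higher in KO (adjusted p = 1.26e-06). A2m, a secreted protease inhibitor, was at least 11.0-fold higher, Fam20a, a secreted pseudokinase, at least 9.24-fold, Acsm4, a medium-chain acyl-CoA synthetase, at least 7.91-fold, and Mir124a-1hg, the host gene of a microRNA, at least 5.71-fold, since no Rescue array read them above background. Mymx, a muscle fusion peptide, was above background on the 6 arrays and 15.9-fold higher in KO. H2-M5, a non-classical MHC gene, was 14.9-fold higher, with 2 of 3 Rescue arrays above background.

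The naive factors held the largest share of genes higher in KO among the identity lists. Of 20 tested, 12 were higher and 2 lower, and their median log2 difference was 1.23 against -0.01 over all genes. Tfcp2l1, a factor that LIF and STAT3 induce, read -1.51, -1.11 and -1.14 in Rescue and 1.88, 1.09 and 1.65 in KO. Each KO array lay above each Rescue array, and the difference was 2.79 ± 0.35 (adjusted p = 6.85e-05), or 6.92-fold. Nr0b1, an orphan receptor (Dax1) that binds Esrrb and Oct4, read 1.17, 1.46 and 1.40 in Rescue and 4.58, 4.31 and 4.91 in KO, a difference of 3.26 ± 0.21 (adjusted p = 6.58e-07). Klf4, a zinc finger factor that keeps naive genes on, read 1.43, 1.11 and 1.17 in Rescue and 3.87, 3.26 and 3.26 in KO, a difference of 2.23 ± 0.25 (adjusted p = 3.49e-05). The widest gap of the list was in Jam2, a junctional adhesion molecule that marks naive cells, at 3.61 ± 0.36. Tcl1, an Akt co-activator, Zfp42 (Rex1, a standard naive marker) and Gbx2, a homeobox factor downstream of STAT3, differed by 2.41 ± 0.27, 2.08 ± 0.18 and 1.75 ± 0.25. Tbx3, Nr5a2 and Klf2, 3 more naive regulators, were higher by 1.51 ± 0.35, 1.01 ± 0.16 and 0.92 ± 0.20, and Tdh, a threonine-degrading enzyme of naive cells, by 1.44 ± 0.13.

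Nanog, the homeobox factor that Esrrb can in part replace, was read by 2 probes that disagreed. The brighter probe gave -2.46, -2.78 and -2.58 in Rescue and 0.48, -0.07 and -0.27 in KO, a difference of 2.65 ± 0.34 (adjusted p = 8.93e-05), and the other gave -0.46, with 2 of 3 KO arrays above background. With the mean of the probes the difference of Nanog was 1.09 and no longer called. Dppa3 (Stella), a gene of naive cells and germ cells, went the other way, with levels of 2.80, 1.52 and 1.51 in Rescue and -1.47, 0.82 and -2.34 in KO and a difference of -2.94 ± 0.92 (adjusted p = 0.0334). Its call ended without scaling, without the filter on dim probes and when any Rescue array or replicate a or c of KO was left out, with differences of -3.16 to -2.27. Pecam1, an adhesion molecule, was the other lower member, at -0.71 ± 0.17, and its call ended without scaling and with median scaling. With median scaling in the fit of all 18 arrays the calls of Klf2, Nr5a2, Tbx3 and Tdh ended as well. They did not end with median scaling of only the 6 arrays titled 8h.

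The factors shared by naive and primed cells moved less. Of 12 tested, 6 were higher in KO and none was called lower, with a median of 0.36. Pou5f1 (Oct4) read 5.88, 5.90 and 5.79 in Rescue and 5.99, 6.16 and 6.30 in KO, and its difference of 0.29 ± 0.15 was not called (adjusted p = 0.202). Sall4 and Utf1, 2 further stem cell factors, had uncalled differences of -0.11 ± 0.17 and 0.18 ± 0.16. Fgf4, the FGF ligand that stem cells make, was 2.15-fold higher, and Mybl2, a Myb factor of dividing cells, 2.22-fold higher, and both calls ended with median scaling. Sox2 differed by 0.42 ± 0.14 (adjusted p = 0.0427), close to the threshold, and its call ended without scaling, with median scaling, without the filter on dim probes and when any of the 6 arrays titled 8h was left out, with differences of 0.39 to 0.44. It also ended, at the same difference, without replicate a of either line at 0h or any Rescue array titled 8h2h, which are not compared here.

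**Figure D2:**
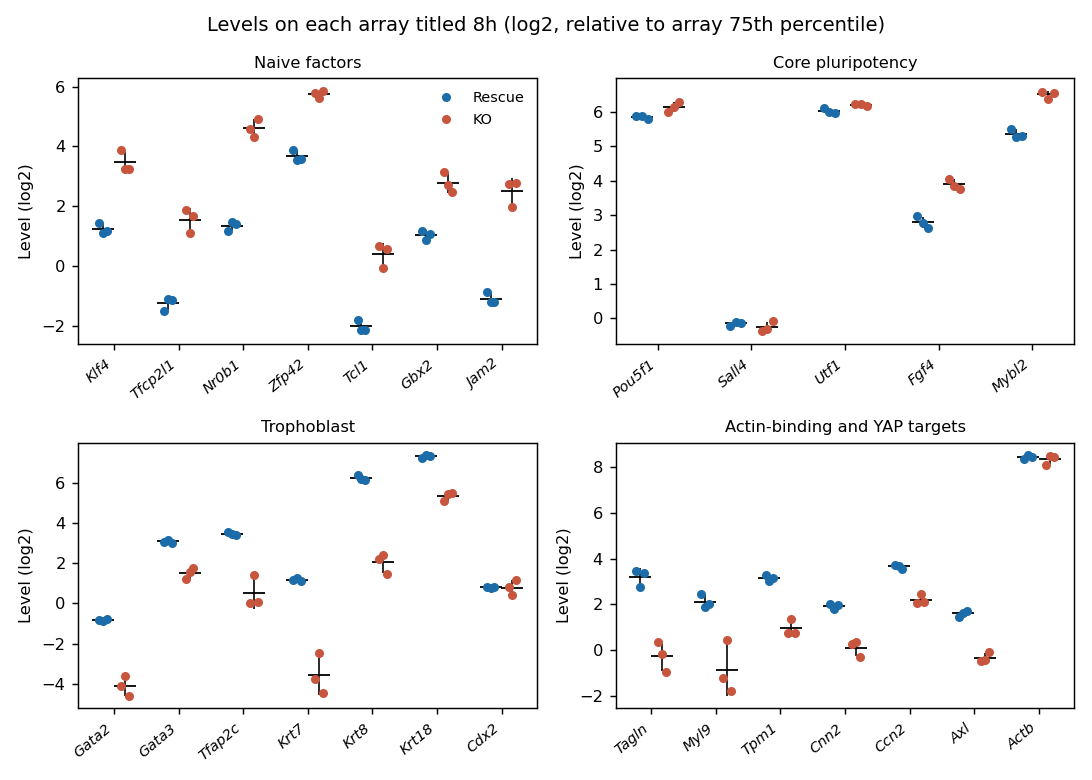
Levels of naive, core pluripotency, trophoblast, actin-binding and YAP target genes on each array titled 8h (log2, relative to the array's 75th percentile). Blue points are Rescue and red points KO, left to right slides a, b and c, and black bars give the mean and SD of the 3 arrays. The 7 naive genes lie higher in KO without overlap, 6 of the 7 trophoblast genes lie lower, and Pou5f1, Sall4, Cdx2 and Actb lie close together or overlap. Over all genes, the lines did not overlap in 48.0%.

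Among 16 formative epiblast genes, 3 were higher in KO and 2 lower, with a median of 0.13. Foxd3, a forkhead factor of the epiblast, read 0.62, 0.02 and -0.02 in Rescue and 2.25, 1.93 and 2.06 in KO, all 3 KO arrays above the Rescue arrays, and differed by 1.88 ± 0.21 (adjusted p = 2.60e-05). Otx2, the factor that sets up formative enhancers, was higher by 1.39 ± 0.29, a call that ended with median scaling. Fgf5, the classical marker of formative cells, went the other way, with -2.18, -2.35 and -2.51 in Rescue and -4.50, -3.30 and -4.49 in KO. The difference was -1.75 ± 0.44 (adjusted p = 0.0104), and it was -1.55 and no longer called without replicate a of KO. Pou3f1 (Oct6) and Sox3 had uncalled differences of 0.04 ± 0.22 and -0.30 ± 0.20. So Otx2 and Fgf5, both markers of the same state, differed in opposite directions.

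Streak genes were called at about the share of all genes. Of 17 listed, 12 were tested, 2 were higher in KO and 1 was lower, which is 25.0% against 21.5%. Eomes, a T-box factor of the streak, was 2.00-fold higher, and Cdx1, a caudal homeobox factor, 3.99-fold higher. Wnt3, the ligand that starts the streak, was at least 3.07-fold lower. T (Brachyury) had an uncalled difference of 0.51 ± 0.58 (adjusted p = 0.610). The Eomes and Cdx1 calls ended with median scaling and the Eomes and Wnt3 calls without scaling. That of Cdx1 also ended without replicate a of KO (difference 1.50), and that of Wnt3 without replicate a or c of either line.

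Trophoblast genes showed the largest shift of any identity list. Of 19 tested, 14 were lower in KO and 1 was higher, and the median was -1.98. Krt8, a keratin of the trophectoderm, read 6.37, 6.20 and 6.13 in Rescue and 2.23, 2.41 and 1.47 in KO. No KO array came near a Rescue array, and Krt8 was 18.3-fold lower (difference -4.19 ± 0.24, adjusted p = 3.07e-07). Gata3, a zinc finger factor that drives trophoblast genes, read 3.06, 3.17 and 3.01 in Rescue and 1.20, 1.54 and 1.74 in KO, a difference of -1.59 ± 0.24 (adjusted p = 3.47e-04). Tfap2c, which works beside Gata3, read 3.55, 3.47 and 3.40 in Rescue and 0.03, 1.39 and 0.07 in KO, a difference of -2.98 ± 0.33 (adjusted p = 2.77e-05). Both trophoblast factors were thus lower on every KO array. Gata2 (2 of 3 KO arrays above background), Ascl2, a basic helix-loop-helix factor of the placenta, and Esx1, a placental homeobox gene, were 9.66-fold, 10.5-fold and 5.60-fold lower. Rhox6 and Rhox9, placental homeobox neighbours whose probes may read each other's RNA, differed by -2.66 ± 0.37 and -2.61 ± 0.37. The keratins Krt18 and Krt19 differed by -1.98 ± 0.15 and -1.50 ± 0.14. Hand1, a factor of giant cells, differed by -1.98 ± 0.51, and its call ended with quantile normalization, without scaling, and without replicate a of Rescue or replicate c of KO (differences -1.79 to -1.73).

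Cdx2, the homeobox factor that specifies the trophectoderm, was among the 4 trophoblast genes that were not called. It read 0.81, 0.76 and 0.81 in Rescue and 0.83, 0.39 and 1.14 in KO, and its difference of -0.01 ± 0.34 was not called (adjusted p = 0.994). The ranges of the lines overlapped. The other 3 were Gcm1, a factor of the placental labyrinth, at -0.05 ± 0.19, Tead4, a TEAD factor of the trophectoderm, at -0.46 ± 0.24, and Prl3d1, a placental lactogen, at -0.53 ± 0.33. Tfap2a, at 0.78 ± 0.19, was the called member that was higher in KO, and its call ended under the 3 other scalings, with the mean of its probes and without replicate a of KO (difference 0.65). The summed signal of the 19 trophoblast genes was 409 to 438 times the 75th percentile on the Rescue arrays and 160 to 183 on the KO arrays, all 19 were above background in Rescue, and Elf5 and Tpbpa were not tested. Gcm1 alone gave 106 to 118 of the Rescue sums and 91.3 to 120 of the KO sums, and without it the sums were 303 to 320 and 57.8 to 72.1. In such bulk samples fewer cells of a type and less RNA per cell cannot be told apart.

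The primitive endoderm list was mixed. Of 22 genes tested, 6 were lower in KO and 2 higher, with a median of -0.76. Col4a1 and Col4a2, the type IV collagen chains of the basement membrane, were 3.40-fold and 6.01-fold lower. Among the factors that define the lineage, Gata6 differed by -1.28 ± 0.43 (adjusted p = 0.0467), while Gata4, with 2 of 3 KO arrays above background, and Sox7 had uncalled differences of -0.87 ± 0.38 and 0.43 ± 0.42. The Gata6 call ended under the 3 other scalings, without the filter on dim probes and when any Rescue array or replicate a or c of KO was left out (differences -1.36 to -0.97). It also ended, at the same difference, without replicate b of Rescue at 0h, any Rescue array titled 8h2h or replicate c of KO at 8h2h, which are not compared here. Plat, a plasminogen activator of parietal endoderm, was at least 2.93-fold lower, a call that ended with normexp correction. Lama1, a laminin chain made by the same cells as Col4a1, was 1.80-fold higher, and its call ended with median scaling or without replicate c of KO (difference 0.71). The summed signals of the list overlapped, 254 to 265 in Rescue and 228 to 267 in KO. Of 10 neural genes, 3 were called lower and none higher. Hes5, a Notch target, was at least 3.54-fold lower (adjusted p = 0.0124), a call that ended with normexp correction and without replicate a of KO. Sox1 and Pax6, the first neural factors, had uncalled differences of 0.31 ± 0.32 and 0.61 ± 0.35.

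Actin-binding genes and targets of SRF, the factor that reads the actin pool, were mostly lower in KO. Of 24 tested, 17 were lower and 1 was higher, and the median was -0.78. Tagln (SM22), which bundles actin, read 3.48, 2.78 and 3.37 in Rescue and 0.34, -0.16 and -0.97 in KO. The lowest Rescue array lay above the highest KO array, and the difference was -3.48 ± 0.32 (adjusted p = 6.59e-06). Myl9, a regulatory myosin light chain, read 2.46, 1.87 and 2.04 in Rescue and -1.22, 0.45 and -1.79 in KO, a difference of -2.98 ± 0.57 (adjusted p = 0.00191). The calponin Cnn2 and the tropomyosins Tpm1 and Tpm2, all of which bind actin filaments, differed by -1.83 ± 0.21, -2.20 ± 0.19 and -1.78 ± 0.16. A further kept probe of Tpm1 differed by -0.02, so its probes did not all differ alike. Tgfb1i1 (Hic-5), a focal adhesion protein, differed by -1.70 ± 0.21. Actb, cytoplasmic actin, and Srf itself had uncalled differences of -0.11 ± 0.13 and -0.13 ± 0.18. Acta2, smooth muscle actin, was read by 2 probes, the brighter at -0.35 ± 0.15 (not called) and the other at -5.98 with 2 of 3 KO arrays above background.

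The SRF list was set beside its promoters, since its members moved together. RefSeq promoters (GRCm38.p6) were found for 20 of the 24 genes, and 8 of these held a CArG box, the sequence that SRF binds, on either strand in the 250 bases before the start, against 1.47% of all 32851 promoters. Among these genes 5 were called lower in KO and 1 higher. The list was drawn up as known SRF targets, so the share describes how it was made. A gene counted if any of its promoters held the box, whereas 1.47% is a share of single promoters. The promoters of Myl9 (chr2:156775214-156775463, plus strand) and Cnn2 (chr10:79988350-79988599, plus strand) show the box, in capitals, in 2 genes that were lower on every KO array:
Myl9: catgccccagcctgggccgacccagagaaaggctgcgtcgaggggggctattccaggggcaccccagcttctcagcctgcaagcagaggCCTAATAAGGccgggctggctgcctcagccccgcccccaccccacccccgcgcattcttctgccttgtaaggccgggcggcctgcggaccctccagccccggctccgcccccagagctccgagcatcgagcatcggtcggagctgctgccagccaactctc
Cnn2: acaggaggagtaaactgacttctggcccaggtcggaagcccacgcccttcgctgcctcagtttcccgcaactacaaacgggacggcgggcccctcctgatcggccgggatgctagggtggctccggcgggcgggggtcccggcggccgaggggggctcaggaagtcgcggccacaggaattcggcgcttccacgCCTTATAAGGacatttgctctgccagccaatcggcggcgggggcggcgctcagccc

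Targets of YAP and TEAD, which read cell tension and contact, gave a like picture. Of 13 tested, 10 were lower in KO and 1 higher, with a median of -1.24. Ccn2 (CTGF), a secreted matrix protein, read 3.73, 3.69 and 3.57 in Rescue and 2.04, 2.45 and 2.13 in KO, a difference of -1.46 ± 0.16 (adjusted p = 2.46e-05). Axl, a receptor tyrosine kinase, and F3, tissue factor, were 3.86-fold and 4.03-fold lower, and Ankrd1, a muscle ankyrin repeat protein, was at least 2.29-fold lower. Ccn1 (CYR61) was 2.46-fold lower, and its call ended without scaling and with median scaling. Tead2, a TEAD factor, was the member higher in KO, at 1.05 ± 0.28. Its call ended without scaling, with median scaling, and without replicate a of KO or replicate b or c of Rescue (differences 0.84 to 1.02). GGAATG, the core that TEAD factors bind, was found on either strand before 5 of the 9 genes with a promoter, and in 12.6% of all promoters of this length. As for SRF, the list is of known targets, and a gene counted if any of its promoters held the core. Of these genes, 4 were called lower in KO and none higher. Ankrd1 (chr19:36119845-36120094, minus strand, GRCm38.p6) holds it at 2 places and Axl (chr7:25788734-25788983, minus strand) at 1 place, in capitals:
Ankrd1: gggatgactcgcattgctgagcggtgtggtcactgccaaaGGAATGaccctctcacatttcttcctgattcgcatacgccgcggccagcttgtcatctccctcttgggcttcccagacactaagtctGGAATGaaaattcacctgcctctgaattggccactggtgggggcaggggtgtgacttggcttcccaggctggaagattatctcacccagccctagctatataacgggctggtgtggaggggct
Axl: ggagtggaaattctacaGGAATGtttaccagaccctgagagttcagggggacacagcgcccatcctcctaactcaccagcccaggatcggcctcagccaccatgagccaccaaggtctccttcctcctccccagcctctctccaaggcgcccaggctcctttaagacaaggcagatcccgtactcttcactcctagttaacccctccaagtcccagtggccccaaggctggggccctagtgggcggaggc

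Genes of the cell surface and the matrix around it followed in the same direction. Of 23 integrin and basement membrane genes 11 were lower in KO and 1 was higher, and of 20 adhesion genes 11 were lower and 2 higher. Without scaling the lower calls were 4 and 3, and with median scaling 4 and 1. Itgb5, a vitronectin receptor subunit, was 4.04-fold lower and Cldn7, a tight junction claudin, 5.73-fold lower. Cdh2 (N-cadherin) differed by -1.30 ± 0.21 and Cdh1 (E-cadherin) by -0.45 ± 0.11. Vim, the filament protein of mesenchyme, had an uncalled difference of -0.07 ± 0.25. The Cdh2 and Cdh1 calls ended with median scaling, that of Cdh1 also without scaling.

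Among secreted proteases and their inhibitors, 8 of 12 were lower in KO and none was called higher, with a median of -1.16. Plau, the urokinase plasminogen activator, read -0.18, 0.22 and 0.14 in Rescue and -4.48, -3.73 and -3.96 in KO, 17.4-fold lower (adjusted p = 2.40e-04). All 3 KO arrays lay far below the Rescue arrays. Mmp9, a gelatinase, was 5.16-fold lower, and Timp2, an inhibitor of such metalloproteases, 11.6-fold lower. Of 11 cytokines and chemokines, 5 were called lower and none higher. The median of -2.08 was -1.31 with genes at background taken at their bounds. Il11, a cytokine that signals through gp130 as LIF does, was 6.24-fold lower, Cxcl10, an interferon-induced chemokine, 4.23-fold lower with 1 of 3 KO arrays above background, and Cxcl1, which attracts neutrophils, at least 3.10-fold lower. The Cxcl1 call ended with normexp correction. Ccl20, a chemokine, had an uncalled difference of -0.75 ± 0.34 (adjusted p = 0.135), which was called with the slide as a block (adjusted p = 0.0348, and 0.0210 to 0.598 over the alternatives). Il33, an alarmin, was read by 2 probes of opposite sign, -2.88 and 3.47, so it has no single direction here.

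**Figure D3:**
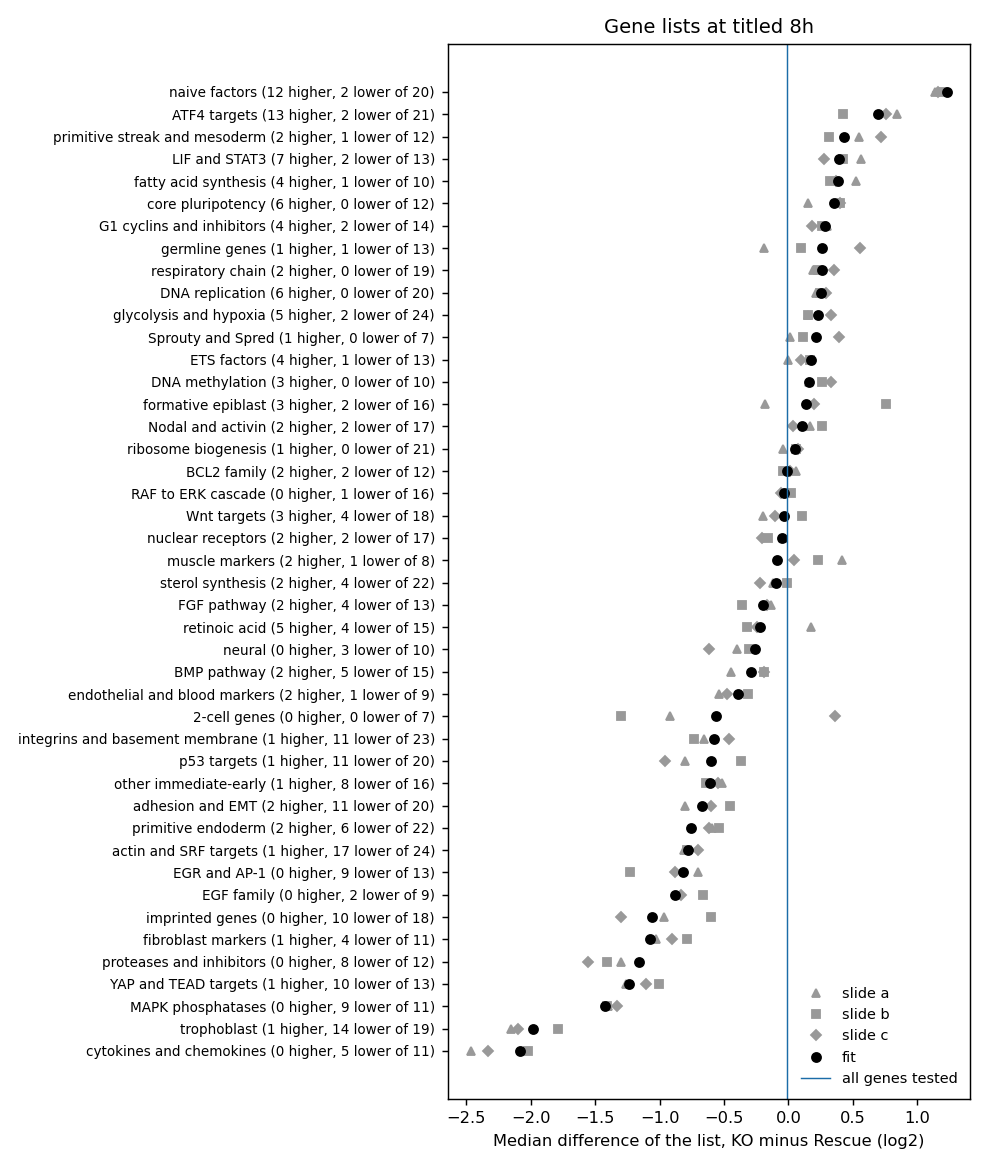
Median log2 difference, KO minus Rescue, of each gene list at titled 8h. Black points come from the fit and grey symbols from the slides a, b and c, the blue line is the median over all genes (-0.01), and each name gives the members called higher and lower of those tested. Naive factors stand at the top with 1.23, and trophoblast genes and cytokines at the bottom with -1.98 and -2.08.

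Other scalings gave other counts of called members. Naive factors had 12 higher calls, 12 without scaling and 8 with median scaling. Trophoblast genes had 14 lower calls, 12 without scaling and 13 with median scaling. For actin and SRF targets the lower calls were 17, 9 and 7 in the same order, for YAP and TEAD targets 10, 7 and 5, for proteases 8, 7 and 5, and for cytokines 5, 5 and 9. For imprinted genes they were 10, 5 and 7, for p53 targets 11, 6 and 4, and for other immediate-early genes 8, 2 and 1. The higher calls of the LIF and STAT3 list were 7, 3 and 3, and those of the core pluripotency list 6, 2 and 0. The medians of these lists kept their sign under both.

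The phosphatases that switch off MAP kinases, several of which ERK itself induces, were lower in KO in 9 of 11 cases and called higher in none, with a median of -1.43. Dusp2 (PAC1), a nuclear phosphatase, read 2.91, 2.72 and 2.86 in Rescue and 0.51, 0.71 and 1.26 in KO. The ranges lay far apart, and the difference was -2.00 ± 0.24 (adjusted p = 4.69e-05). Dusp14 and Dusp8 differed by -2.23 ± 0.31 and -2.23 ± 0.39. Dusp9 (MKP-4), a cytoplasmic ERK phosphatase, differed by -1.43 ± 0.10. Dusp5, a nuclear ERK phosphatase, differed by -1.55 ± 0.32, and its call ended with quantile normalization. Dusp1, an immediate-early phosphatase, differed by -1.47 ± 0.21, and its call ended with median scaling. Dusp6 (MKP-3), the ERK phosphatase most used as a readout of the pathway, read 4.64, 4.60 and 4.78 in Rescue and 4.64, 4.56 and 4.56 in KO. Its values overlapped and the difference of -0.09 ± 0.23 was not called (adjusted p = 0.849). On the arrays titled 0h, 8h and 8h2h, Dusp6 had means of 2.69, 4.67 and 0.43 in Rescue and 2.34, 4.58 and 0.17 in KO. Egr1 had means of -0.03, 4.59 and 0.57 in Rescue and 1.54, 4.15 and -0.73 in KO. The transcription factor Etv4 fell little from 8h to 8h2h, from 4.24 to 4.12 in Rescue and from 5.31 to 4.98 in KO. Whether Mek was inhibited on the arrays titled 8h was not tested. Dusp4 (MKP-2) had a smaller difference of -0.51 ± 0.14 (adjusted p = 0.0194). It was called neither without scaling or with median scaling nor without replicate a of either line (difference -0.41 in both cases).

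Sprouty and Spred genes, the other feedback arm, gave 1 call higher in KO and none lower among 7 tested, with a median of 0.22. Spry4 read 0.57, 0.16 and 0.71 in Rescue and 0.58, 0.40 and 1.16 in KO, values that overlapped (difference 0.24 ± 0.38, adjusted p = 0.737). Spry1 and Spry2 had uncalled differences of -0.21 ± 0.21 and 0.22 ± 0.16. Il17rd (Sef), an inhibitor of FGF signalling, was 2.45-fold higher, a call that ended with median scaling. The kinases and adaptors of the cascade from Ras to ERK gave 1 call, lower in KO, among 16 genes, with a median of -0.03. Map2k1 (Mek1), the kinase upstream of ERK, had an uncalled difference of 0.18 ± 0.17. The called gene was Sos1, which loads Ras with GTP, at -0.40 ± 0.13. Its call ended without scaling, with median scaling, with normexp correction, without the filter, on the 6 arrays alone, and when any Rescue array or replicate a or c of KO was left out (differences -0.43 to -0.30). It also ended without replicate b of Rescue at 8h2h, which is not compared here.

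Immediate-early transcription factors were mostly lower. Of 13 EGR and AP-1 genes, 9 were lower in KO and none was called higher, with a median of -0.82. Egr2, a zinc finger factor, read -0.44, -0.56 and -0.42 in Rescue and -3.30, -2.91 and -3.36 in KO, 6.57-fold lower (adjusted p = 0.00125). Jun, an AP-1 subunit, read 2.69, 3.07 and 3.08 in Rescue and 0.27, 0.89 and 0.97 in KO, 4.72-fold lower (adjusted p = 7.97e-05). In both genes every KO array lay below every Rescue array. Egr1 read 4.60, 4.60 and 4.57 in Rescue and 4.22, 4.07 and 4.16 in KO. These values did not overlap either, but the difference of -0.44 ± 0.15 missed the threshold (adjusted p = 0.0560), and it passed with the slide as a block (adjusted p = 0.0393, and 0.00491 to 0.890 over the alternatives). Junb, a partner of Fos, differed by -0.75 ± 0.20, and its call ended without scaling, with median scaling and without replicate c of Rescue (difference -0.70). Fosl1 (FRA1), a late AP-1 subunit that ERK stabilises, differed by -1.58 ± 0.47 (adjusted p = 0.0276). Its call ended with quantile normalization, without scaling, and when any Rescue array or replicate a or b of KO was left out (differences -1.65 to -1.39). Of 16 other immediate-early genes 8 were lower and 1 higher. Btg2, an antiproliferative gene, was 2.51-fold lower and Myc had an uncalled difference of 0.17 ± 0.14.

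ETS factors, several of which ERK phosphorylates or induces, went the other way in part. Of 13 tested, 4 were higher in KO and 1 lower, with a median of 0.17. Etv4, an FGF-induced factor, read 3.99, 4.34 and 4.39 in Rescue and 5.56, 5.04 and 5.34 in KO, 2.10-fold higher (adjusted p = 0.0178). Etv5, its close relative, had an uncalled difference of 0.23 ± 0.13. Elf3, an epithelial ETS factor, was 2.52-fold lower. The Etv4 and Elf3 calls ended with median scaling, and that of Etv4 also without replicate a of Rescue or replicate a or c of KO (differences 0.95 to 1.06). The phosphatase, EGR and AP-1 lists thus held 18 calls lower in KO and none higher (9 lower without scaling and 9 with median scaling). Dusp6, Spry4 and Etv5 were not called, and Etv4 and Il17rd were called higher. Not every gene of these lists was higher at 8h than at 0h. The means of Dusp8 at 0h and 8h were -1.55 and -1.895 in Rescue and -3.83 and -4.125 in KO.

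**Figure D4:**
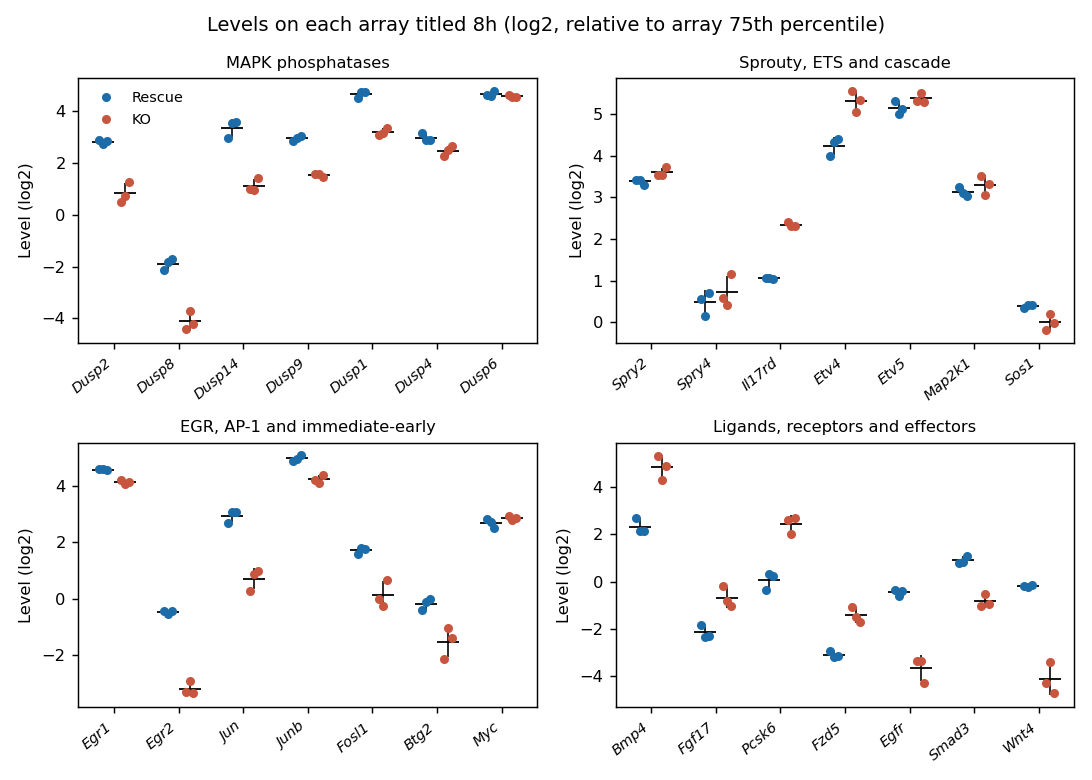
Levels of phosphatases, Sprouty, ETS and cascade genes, immediate-early factors, and ligands, receptors and effectors on each array titled 8h (log2, relative to the array's 75th percentile). Blue points are Rescue and red points KO, left to right slides a, b and c, and black bars give the mean and SD of the 3 arrays. Dusp2, Dusp8, Egr2 and Jun lie lower in KO without overlap, Bmp4 and Pcsk6 lie higher, and Dusp6 and Spry4 overlap. Over all genes, the lines did not overlap in 48.0%.

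The share of signalling genes that were called differed by list, and 21.5% of all genes were called. In the FGF list, of 13 tested, 2 were higher in KO and 4 lower. Fgf17, an FGF ligand, was 2.76-fold higher, while Fgfr2, a receptor of the extra-embryonic lineages, differed by -0.97 ± 0.23 and Fgfr1, the main receptor of stem cells, had an uncalled difference of -0.42 ± 0.22. The Fgfr2 call ended under the 3 other scalings. Egfr, the EGF receptor, read -0.35, -0.61 and -0.40 in Rescue and -3.33, -3.34 and -4.29 in KO, 9.18-fold lower (adjusted p = 3.39e-06). It was 1 of 2 genes called lower among 9 of that family, with none higher, and 22.2% called is near the share of all genes.

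In the BMP list, of 15 genes, 2 were higher and 5 lower. Bmp4, the ligand that acts with LIF on stem cells, read 2.68, 2.14 and 2.13 in Rescue and 5.28, 4.27 and 4.89 in KO, 5.64-fold higher (adjusted p = 3.53e-05). Id2, Id3 and Msx1, which BMP signals induce, went the other way, with -1.60 ± 0.19, -1.91 ± 0.30 and -1.65 ± 0.27. The ligand was thus higher, and 3 of its targets lower, on the same arrays. Id1, a further target, had an uncalled difference of -0.26 ± 0.26. Of 17 Nodal and activin genes 2 were higher and 2 lower, which is 23.5%, near the 21.5% of all genes. Pcsk6, a protease that matures Nodal, was 5.18-fold higher and Smad3, an effector, 3.34-fold lower. Nodal and Lefty1, its inhibitor, had uncalled differences of -0.27 ± 0.14 and 0.11 ± 0.72.

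Of 18 Wnt genes, 3 were higher in KO and 4 lower, and their median of -0.04 was near that of all genes. Wnt4, a ligand, was 15.5-fold lower with 2 of 3 KO arrays above background, and Fzd5, a receptor, 3.18-fold higher. Axin2, the standard target of beta-catenin, had an uncalled difference of 0.04 ± 0.19. Of 13 LIF and STAT3 genes, 7 were higher and 2 lower, but Klf4, Tfcp2l1 and Gbx2 stand in the naive list too. Stat3 differed by 0.56 ± 0.13 and Jak1 by -0.64 ± 0.15, calls that ended without scaling and with median scaling, that of Stat3 also with the mean of its probes (difference 0.47), and Il6st (gp130), the shared receptor chain, had an uncalled difference of 0.14 ± 0.14. Of 15 retinoic acid genes, 5 were higher and 4 lower. Cyp26a1, which degrades retinoic acid, was 2.94-fold lower, while Dhrs3, which turns retinal back to retinol, was 2.62-fold higher, a call that ended with median scaling.

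Among enzymes of DNA methylation, 3 of 10 were higher in KO and none was called lower. Tet2, which oxidises methylcytosine, read -0.25, -0.16 and -0.14 in Rescue and 2.11, 1.64 and 2.24 in KO, 4.53-fold higher (adjusted p = 3.26e-05). Tet1 and Dnmt3a, a de novo methyltransferase, differed by 0.91 ± 0.11 and 1.49 ± 0.21, calls that ended with median scaling, and a second probe of Dnmt3a differed by 0.19. Dnmt3b and Dnmt1 had uncalled differences of -0.09 ± 0.23 and 0.14 ± 0.22. Germline genes that methylation silences gave 1 call higher and 1 lower of 13, and genes of the 2-cell-like state none of 7. Imprinted genes, by contrast, were lower in 10 of 18 cases and called higher in none, with a median of -1.06. Igf2, a growth factor expressed from the paternal allele, read 1.81, 2.14 and 1.98 in Rescue and -1.64, -0.63 and -2.35 in KO, 11.4-fold lower (adjusted p = 6.58e-04). Peg3, also paternal, was 5.23-fold lower, and Igf2r and Plagl1 had uncalled differences of -0.10 ± 0.19 and -0.12 ± 0.38. Maternal and paternal genes were both among the lower ones, since H19 is maternal.

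Targets of p53 were lower in KO in 11 of 20 cases and higher in 1, with a median of -0.60. Plk2, a kinase that p53 induces, Perp, a desmosome protein, and Phlda3, an Akt inhibitor, were 3.82-fold, 2.67-fold and 2.62-fold lower. Cdkn1a (p21), the cyclin-dependent kinase inhibitor, and Mdm2, which degrades p53, differed by -1.57 ± 0.19 and -1.05 ± 0.11, calls that ended with median scaling. Bax had an uncalled difference of -0.22 ± 0.15. Of 14 genes of G1 control, 4 were higher and 2 lower. Ccnd2 (cyclin D2) read 1.21, 1.08 and 1.06 in Rescue and 3.14, 2.55 and 2.83 in KO, 3.31-fold higher (adjusted p = 1.10e-05), and Cdkn2b (p15), an inhibitor of its kinases, was 3.27-fold lower. Replication genes were higher in 6 of 20 cases and called lower in none, by small amounts, with a median of 0.25, and only 1 call was left without scaling and none with median scaling. Pola1, a DNA polymerase subunit, had the largest difference of these, 0.71 ± 0.17, and its call ended without scaling and with median scaling. BCL2 family genes gave 2 calls higher and 2 lower of 12. Bok, a death effector, differed by -0.79 ± 0.10, and its call ended under both of those settings too.

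ATF4 targets, which supply amino acids and answer to their shortage, were higher in KO in 13 of 21 cases and lower in 2, with a median of 0.69. The higher calls were 8 without scaling and 1 with median scaling, where the median was 0.61. Chac1, a glutathione-degrading enzyme, read -0.35, 0.16 and 0.27 in Rescue and 2.69, 1.42 and 2.38 in KO. The lines did not overlap, and Chac1 was 4.39-fold higher (difference 2.14 ± 0.40, adjusted p = 0.00172). Trib3, a pseudokinase, Stc2, a secreted glycoprotein, Cth, which makes cysteine, and Shmt2, of mitochondrial serine metabolism, differed by 1.42 ± 0.21, 1.51 ± 0.26, 1.32 ± 0.26 and 1.15 ± 0.21, and the calls of all 4 ended with median scaling. Cebpb, a C/EBP factor on the same list, was 3.21-fold lower, Slc7a11, the cystine transporter, at least 1.64-fold lower, a call that ended with normexp correction, and Ddit3 (CHOP) had an uncalled difference of -0.10 ± 0.17. TGATGNAA, the composite site of ATF4 and C/EBP factors, was found on either strand before 4 of the 18 genes with a promoter and in 3.45% of all promoters of 250 bases. This list too is of known targets, and a gene counted if any of its promoters held the site. Of these genes, 2 were called higher in KO and 1, Slc7a11, lower. The Chac1 promoter (chr2:119350992-119351241, plus strand, GRCm38.p6), the gene of the list that differed most, holds it on the minus strand, in capitals:
Chac1: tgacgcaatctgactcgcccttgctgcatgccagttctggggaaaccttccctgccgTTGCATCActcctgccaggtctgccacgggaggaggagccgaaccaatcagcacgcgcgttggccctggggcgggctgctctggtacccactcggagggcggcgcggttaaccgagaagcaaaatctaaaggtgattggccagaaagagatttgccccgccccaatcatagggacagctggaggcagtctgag

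Other metabolic lists moved less. Of 24 glycolysis and hypoxia genes 5 were higher in KO and 2 lower. Pfkp, a phosphofructokinase, was 4.27-fold higher and Ndrg1, a hypoxia target, 4.23-fold lower, while Gapdh and Ldha had uncalled differences of 0.04 ± 0.12 and 0.03 ± 0.11. Of 22 sterol genes 2 were higher and 4 lower. Msmo1, a sterol oxidase, differed by -0.75 ± 0.13, and its call ended without scaling and with median scaling. Fatty acid synthesis gave 4 calls higher and 1 lower of 10, nuclear-coded respiratory chain subunits 2 higher of 19, and ribosome biogenesis 1 higher of 21, with none lower in the last 2 lists. Their medians were 0.38, 0.26 and 0.05. Npm1, an abundant nucleolar protein, had an uncalled difference of 0.05 ± 0.16. Of 17 nuclear receptors other than Esrrb, 2 were called higher, Nr0b1 and Nr5a2 of the naive list, and 2 lower. That is 23.5%, near the 21.5% of all genes. Esrra, a close relative of Esrrb, had an uncalled difference of -0.05 ± 0.15.

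Markers of cell types foreign to such cultures were read in both lines at low summed levels. Fibroblast markers, of which feeder cells would be rich, gave 4 calls lower in KO and 1 higher of 11, and a median of -1.07 that was -0.11 with bounds. Their summed signal was 13.2 to 14.9 in Rescue and 17.9 to 24.7 in KO. Thy1, a surface protein, made up most of the KO sums, and without it the sums were 7.08 to 7.64 in Rescue and 2.73 to 3.70 in KO. Col1a1, a main collagen of fibroblasts, had an uncalled difference of -0.11 ± 0.34. Col6a1 was 5.17-fold lower, with 2 of 3 KO arrays above background, and Thy1 was 2.71-fold higher, a call that ended with median scaling. Muscle markers summed to 1.33 to 1.37 in Rescue and 4.93 to 8.51 in KO, with 2 calls higher and 1 lower of 8. The factors Myod1, Myog and Myf5 were not among the genes tested. Mymx, given above, made up most of the KO sums, and without it the sums of the lines overlapped, with 1.01 the lowest in Rescue and 1.09 to 1.28 in KO. Endothelial and blood markers summed to 7.03 to 7.90 in Rescue and 3.29 to 5.15 in KO, with 2 calls higher and 1 lower of 9 and a median of -0.39. The called genes were the blood factors Gata1 and Tal1, with 1.59 ± 0.19 and 1.41 ± 0.20, and Runx1, with -1.10 ± 0.23. The Gata1 and Runx1 calls ended with median scaling, that of Runx1 also without scaling. The part of other cells in the results above was not tested.

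At titled 0h, before 4OHT, the same lines differed in 2941 genes (18.4%). Of these, 1712 were called in the same direction at 8h, which is 58.2% of the 0h calls and 49.6% of the 8h calls, and 51 were called in opposite directions. Trophoblast genes were lower in KO in 15 cases at 0h against 14 at 8h, and actin and SRF targets in 16 against 17. MAPK phosphatases were lower in 6 cases at 0h and 9 at 8h, and EGR and AP-1 genes in 5 with 3 higher at 0h against 9 with none higher at 8h. Whether a list differed between times was not tested.

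The test of the change itself, the 8h difference minus the 0h difference, called 365 genes (2.28%), 171 with a more positive difference at 8h and 194 with a more negative one. Of the 1687 genes called at 8h but not at 0h, 172 passed it. Cdx2, level at 8h, had differed by -3.39 at 0h, where no KO array read it above background (bound -2.45), and the change of 3.39 ± 0.48 passed (adjusted p = 0.00206). Meox1, a mesoderm homeobox gene, and Ccdc3, a secreted protein, were 11.1-fold and 8.79-fold higher in KO at 8h after -0.24 and 0.17 at 0h, and changed by 3.72 ± 0.45 and 2.96 ± 0.46. At 0h only 1 Rescue array read Meox1 and none read Ccdc3 above background, and no KO array read either, so the 0h values lie at background. Ano1, a chloride channel, was 9.66-fold lower at 8h after 1.30 at 0h, a change of -4.57 ± 0.48 (adjusted p = 2.97e-04). Skor1, a corepressor, changed by 2.86 ± 0.29. Among named genes of the naive list, Nr0b1 changed by 1.26 ± 0.29 and Zfp42 by 1.12 ± 0.26, so their gaps were wider at 8h, whereas Klf4 (-0.03 ± 0.36) and Tfcp2l1 (0.77 ± 0.49) did not pass. Of the phosphatase and EGR genes, Dusp14 changed by -2.05 ± 0.44, Dusp4 by 1.22 ± 0.20 and Egr1 by -2.02 ± 0.22. The count fell to 184 without replicate b of Rescue, 218 without c and 237 without a, to 238 without replicate a of KO at 8h and 227 without it at 0h, and rose to 755 without replicate b of the KO arrays titled 8h2h, which stood apart from the other 17 arrays with 88.6% of probes above background.

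**Figure D5:**
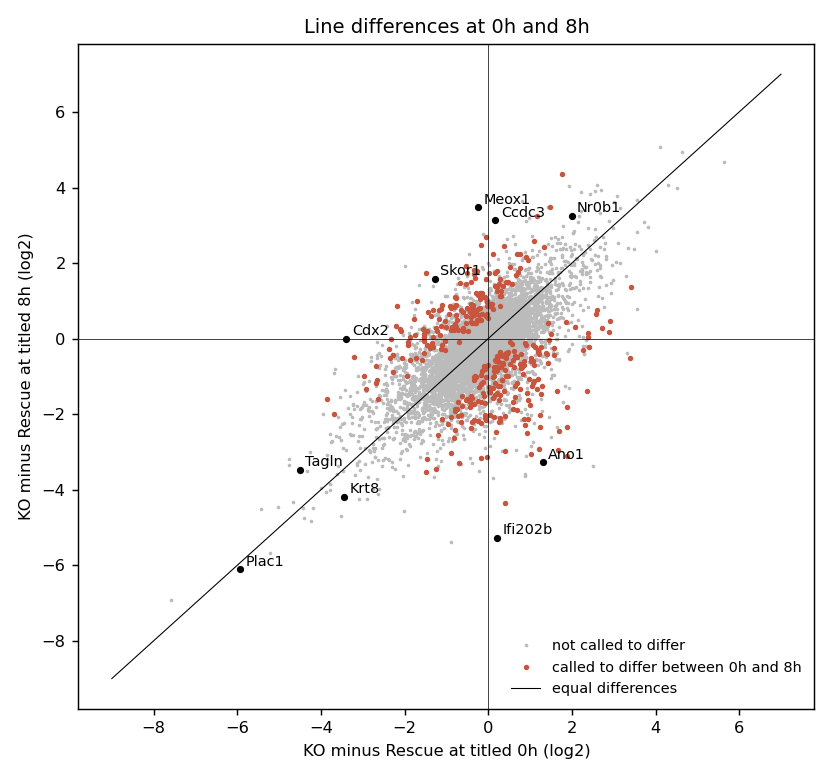
The log2 difference, KO minus Rescue, of each gene at titled 0h (across) and at titled 8h (up), with the line of equal differences. Red points are the 365 genes whose difference changed between 0h and 8h, and 10 genes are named. Plac1, Krt8 and Tagln lie near the line far below 0, Cdx2 lies at 0 at 8h but far below 0 at 0h, and Meox1 and Ccdc3 lie near 0 at 0h and high at 8h.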

How the data were processed

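RNA of 18 samples was hybridised to 1 array each, and the 6 arrays titled 8h were compared. Per the labels, 100 ng of total RNA was amplified and labelled. The labels name Cy5, whereas the file headers describe 1 green channel. Per the file headers, the scanner software was Agilent Feature Extraction 12.0.1.1, and background was subtracted within each array. The deposited values are this processed signal, an intensity that is not scaled between arrays, and the authors' table of values was identical to it in all 62976 spots of every array. Deposited median spot and background intensities and the flags (other values) for background, saturation and outliers were also read. No spot was saturated.

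Levels are log2 intensities minus the 75th percentile of the log2 intensities of the same array, since the deposited values are unscaled. Of 56605 probes, 32994 were matched to 22911 RefSeq gene symbols through their accessions. Probes entered if at least 1 of the 6 groups had all 3 of its arrays well above background, 107 probes with outlier spots were left out, and each of the 16022 genes was read from its brightest probe (5698 had several). Where no array of a group was above background, the fold is a bound against the lowest signal above background on those arrays, or the gene's own signal where higher. All 18 arrays entered a group-means model in limma 3.58.1 (R 4.3.3), so each SE and adjusted p also rests on the other 12 arrays. Its moderated test is two-sided, with Benjamini-Hochberg adjustment over all genes and a threshold of 0.05. The number of arrays limits the precision.

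Deviations from the group means of same-slide 8h arrays correlated at 0.25, -0.04 and 0.12 on slides a, b and c. Over all 18 arrays, 28 of 45 same-slide pairs correlated above 0.1. By this measure the letters paired the samples in part, and the headers place them on shared slides. The main fit leaves the slide out and so does not use this pairing, and the slide as a block is an alternative. The members and gene lists were chosen with earlier results of these data known. Named genes came from the 10 highest and 10 lowest differences, up to 6 called genes a list by size of the difference, a set of 26 fixed genes, the 6 highest and 6 lowest changes between 0h and 8h, and members that were not called. Fewer are named than the rule gives, and some genes are not reported here. The lists overlap in part. Alternatives changed the background correction (normexp, offset 50), the scaling, the filter, the probe rule, the slide as a block, the arrays fitted, the prior or a 2-fold minimum, or left out each array. Median scaling and no scaling on only the arrays compared were chosen after seeing the data. The fit was tested on simulated data for KO against Rescue at 8h over 16022 genes, with each size of change given to 50 genes. It recovered 30% of log2 changes of 0.5, 60% of 1, 86% of 2 and 66% of -1, with 8 false calls. Far fewer genes changed there than the 21.5% called here, and the simulated noise was independent between arrays, without the pairing by slide. These shares and false calls therefore need not hold for the data.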

Additional observations from a re-analysis of the deposited data

Results flagged for a closer look

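In 30 of the genes named above, the difference between KO and Rescue changed between the arrays titled 0h and those titled 8h (limma's interaction test, adjusted p under 0.05, where 2.28% of all genes passed). Some genes were named for the size of this change or of the 8h difference. Their number beside 2.28% therefore follows in part from that choice. The changes below are the log2 difference at 8h minus that at 0h, and a negative value means that KO fell relative to Rescue.

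Among naive, epiblast and DNA methylation genes the changes were upwards: Nr0b1 by 1.26, Gbx2 by 1.58, Zfp42 by 1.12, Tdh by 0.87, Tet1 by 0.83, Dnmt3a by 1.91 and Pou3f1 by 1.93. Pou3f1 (Oct6) had been lower in KO by -1.88 at 0h and was level at 8h, at 0.04. The trophoblast genes with a change went upwards as well, Cdx2 by 3.39, Krt18 by 1.70 and Tfap2a by 1.24, so the gap in Krt18 narrowed from -3.69 to -1.98 while that in Cdx2 closed. No KO array read Cdx2 above background at 0h.

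Phosphatase and EGR genes changed in both directions. Egr1 changed by -2.02, from 1.58 at 0h to -0.44 at 8h, Dusp14 by -2.05 and Dusp4 by 1.22. Among signalling and stress genes, Smad3 changed by -1.40, Cdkn1a by -1.18, Il11 by -1.82, Timp2 by -2.04, Cdh2 by -1.40, Ndrg1 by -1.20, Msmo1 by -0.96 and Slc7a11 by -2.45, the last with no KO array above background at 8h. Further from these lists, Ano1 changed by -4.57, Ifi202b by -5.49 (adjusted p = 0.0497, at the threshold), Meox1 by 3.72, Ccdc3 by 2.96, Skor1 by 2.86, Ntn1 by 2.58, Thy1 by 1.18, Gata1 by 1.63 and Runx1 by -1.43. At 0h Ifi202b, Ccdc3 and Slc7a11 were above background on none of the 6 arrays, and Meox1 on 1, so their changes start at background, and Il11 was above it on 1 of the 3 KO arrays. No group was large enough for a test of single outlying arrays.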

How the results depend on the processing

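Of the 3450 genes called between the lines at 8h, 1955 kept their call when each of the 18 arrays was left out in turn and 506 under each of 33 alternatives that tested them, and none was called with the other sign under any. The count was 1211 without scaling, 1050 with median scaling and 1494 with a 2-fold minimum. With 1 array left out it was 2258 (without replicate a of KO at 8h) to 4630 (without replicate b of KO at 8h2h). Fitted on the 6 arrays alone it was 2218 without scaling and 4673 with median scaling. The median of all genes was 0.11 without scaling and -0.10 with median scaling against -0.01. The count of genes whose difference changed between 0h and 8h was 54 without scaling, 48 with median scaling, 236 without the filter, 92 without scaling on the 12 arrays titled 0h and 8h, and 184 to 755 when 1 array was left out. With the slide as a replicate block the counts were 4108 at 8h, 3426 of them called without it too, and 474 for the change. The block made calls of Egr1 and Ccl20 and changed no other call among the named genes, but fitted on the 6 arrays alone it also ended those of Dhrs3, Dppa3, Dusp4, H19, Pecam1 and Sos1 and made that of Fgfr1. Without the block that fit made calls of Ccl20, Egr1, Fgfr1, Gata4 and Prl3d1. Il33 turned to 0.29 with the mean of its probes. For the 189 named genes, 5996 of 6190 values under an alternative kept direction and side of the threshold. Where a call ended, the cause was not tested. Genes near background carry bounds, and the depth of signal over background limits them.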
